A study of Homo sapiens with 6 samples.

Results

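Bone morphogenetic protein (BMP) signalling was followed in LX-2 cells through 9 genes: the ligand genes BMP2, BMP4 and BMP6, the secreted antagonist genes GREM1 (gremlin 1) and NOG (noggin), and the target genes ID1, ID2, ID3 and ID4. The genes were taken by symbol from a table of 27830 genes. Of the 9 genes, 8 had a row, 7 passed the filter on low counts and were tested, BMP2 was too low to test, and ID4 was not analysed here. LX-2 is an established line of human hepatic stellate cells, so all samples come from a single line. Transforming growth factor beta 1 (TGF-β1, 10 ng/ml for 24 h) was given to 3 samples, and 3 untreated samples served as controls. The labels describe the TGF-β1 treatment as serum-free and leave the medium of the controls unstated, so an effect of serum cannot be told apart from that of TGF-β1 in any comparison here. Whether samples of the same group came from different cultures is not stated, and p-values therefore reflect a spread that could be technical.

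BMPs are secreted dimers of the TGF-β superfamily that bind type I and type II serine/threonine kinase receptors. The receptors phosphorylate SMAD1, SMAD5 and SMAD9, which enter the nucleus with SMAD4, and the ID genes are among the best known targets. ID proteins have a helix-loop-helix domain without a DNA-binding region, and they hold E proteins and other helix-loop-helix factors away from DNA. Gremlin and noggin bind BMPs outside the cell and keep them from their receptors. TGF-β1 acts mainly through SMAD2 and SMAD3 and is the chief profibrotic cytokine of stellate cells, and in epithelial cells it is known to repress ID1.

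Libraries held 13866957 to 16454700 counts with TGF-β1 and 14118402 to 17694675 in controls, and the detection floor of 3 counts stood for 0.17 to 0.216 CPM (read counts scaled by library size). Levels are CPM on library sizes scaled by the trimmed mean of M values (TMM), unless the deposited FPKM (counts scaled by gene length and library size) are named. Summed levels of marker lists are an exception, as CPM scaled by total counts alone. FPKM are used wherever genes are compared with each other. Of 9 genes that TGF-β1 is known to induce, edgeR called 4 higher, against 0.187% of all tested genes. Among stellate and mesenchymal markers 12 of 15 were tested and 1 (COL3A1) was called higher, against the same 0.187%. Their summed level was 3008 to 3453 CPM with TGF-β1 and 2866 to 2941 CPM in controls. COL1A1 and VIM made up most of this sum and went opposite ways, and neither was called. COL1A1 averaged 1770 CPM with TGF-β1 and 1331 CPM in controls, and VIM averaged 1227 and 1418 CPM. LRAT and DES had 0 to 5 counts per library, PDGFRA had 6 to 12, and ACTA2 had 65 to 92. The libraries also differed in how levels followed the GC content of transcripts. Over 234 tested genes with a GC content of up to 35%, the median log2 deviation from each gene's mean was 0.64, 0.23 and -0.18 in TGF-β1 libraries 1 to 3, against -0.08, -0.39 and -0.14 in control libraries 1 to 3. For the genes of the BMP pathway named below, both values are given where removal of this trend changed the direction or the edgeR call.

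The windows around the transcription starts of the ID genes are shown because ID1 had the lowest unadjusted p of the 7 tested genes, and ID3 and ID2 are its relatives. Each runs from 250 bases before to 50 bases after the start, on the gene's own strand, from RefSeq on GRCh38.p14. Capitals mark GTCT, the short core bound by SMAD3 and SMAD4, read on either strand (AGAC on the opposite one). The palindrome GGCGCC, a site type bound by SMAD1 and SMAD5, was searched too. ID1 lies at chr20:31605039-31605338 on the plus strand, ID2 at chr2:8681806-8682105 on the plus strand and ID3 at chr1:23559452-23559751 on the minus strand.
ID1: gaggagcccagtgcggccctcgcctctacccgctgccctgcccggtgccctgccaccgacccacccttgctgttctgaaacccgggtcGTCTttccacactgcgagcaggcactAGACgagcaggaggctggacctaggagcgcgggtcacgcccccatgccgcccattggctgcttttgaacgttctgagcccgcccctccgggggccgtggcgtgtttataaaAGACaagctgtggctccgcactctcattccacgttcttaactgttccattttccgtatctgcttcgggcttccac
ID3: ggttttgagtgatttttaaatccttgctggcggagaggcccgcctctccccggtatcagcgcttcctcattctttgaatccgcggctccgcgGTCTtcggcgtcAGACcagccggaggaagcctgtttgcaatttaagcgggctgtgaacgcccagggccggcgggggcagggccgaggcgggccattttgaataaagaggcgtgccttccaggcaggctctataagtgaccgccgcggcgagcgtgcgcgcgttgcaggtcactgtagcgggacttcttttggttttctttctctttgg
ID2: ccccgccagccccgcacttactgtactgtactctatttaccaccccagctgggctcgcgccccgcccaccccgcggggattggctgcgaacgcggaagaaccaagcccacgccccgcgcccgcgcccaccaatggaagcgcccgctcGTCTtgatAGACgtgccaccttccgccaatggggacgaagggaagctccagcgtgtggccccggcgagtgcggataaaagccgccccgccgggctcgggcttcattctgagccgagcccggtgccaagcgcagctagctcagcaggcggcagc
The ID1 window held 3 GTCT matches, with first bases at -162, -136 and -25, the last directly after a TATAAA that began at -31. The ID3 window held 2 matches, at -158 and -146, and the ID2 window also held 2, at -103 and -95. At least 1 GTCT match was present in 84% of 35116 windows of this length, and 3 or more were present in 30.5%. None of the 3 ID windows held GGCGCC, which was present in 19.2% of all windows. Bases further upstream or downstream of the ID genes' starts were not searched. TATAAA was present in the ID1 window alone among the 3 and in 11.5% of all windows. These matches describe the letters in the windows and were not tied to binding in these cells.

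ID1 was the gene with the clearest difference. It spans bases 31605283 to 31606515 of chromosome 20 on the plus strand in GENCODE release 29 (GRCh38), and none of its exon bases overlaps another gene. It had 36.2, 45.3 and 44.3 CPM in TGF-β1 replicates 1 to 3, against 70.3, 74.3 and 65.9 CPM in control replicates 1 to 3. All 3 TGF-β1 libraries lay below all 3 control libraries, with a wide gap between the groups. In bulk RNA, fewer cells that express a gene and less of its RNA per cell cannot be told apart. The means were 41.9 ± 4.99 CPM with TGF-β1 and 70.2 ± 4.21 CPM in controls (SD, n = 3 each). This is 1.67-fold lower, a log2 difference of -0.74 ± 0.14 (SE) with a 95% interval from -1.05 to -0.43. In edgeR's quasi-likelihood test the unadjusted p was 2.31e-04, the 61st lowest of 14463 genes, and the adjusted p was 0.0542, just past the threshold of 0.05. By this test 0 of the 7 genes were called, against 0.366% of all tested genes, and 1 (ID1) had an unadjusted p under 0.05, against 15.6%. DESeq2 called 1 of them (ID1, lower), against 1% (133) of the 13262 genes to which it gave an adjusted p. Limma on log2(FPKM + 1) also called 1 (ID1, lower), against 0.201% of all tested genes called lower, and limma voom called 0, against 0.380% called in either direction.

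**Figure D1:**
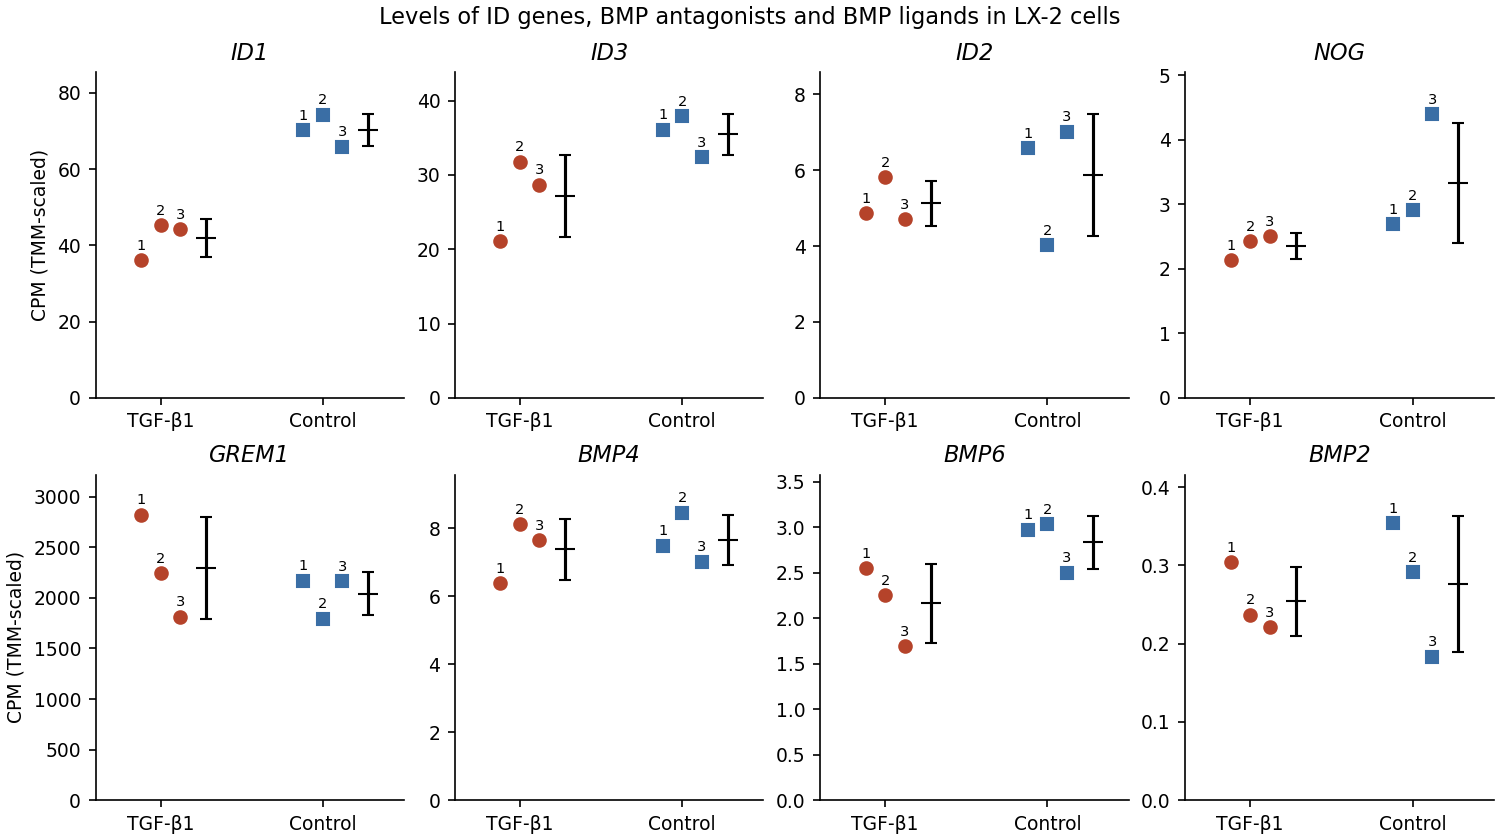
CPM on TMM-scaled library sizes for each gene, with TGF-β1 libraries as circles and control libraries as squares, numbered by replicate. The bars are mean ± SD of 3 libraries. ID1 sits at 36.2 to 45.3 CPM with TGF-β1 and 65.9 to 74.3 CPM in controls, while the groups of ID2, GREM1, BMP4, BMP6 and BMP2 overlap.

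The size of the ID1 difference varied less than its call. Over 18 alternative settings the log2 difference ran from -0.80 to -0.63, and ID1 passed in 11 of them (adjusted p 4.76e-04 to 0.314). With the GC trend removed it had 41.1, 47.5 and 42.0 CPM with TGF-β1, against 69.6, 65.1 and 67.2 CPM in controls. In that fit its log2 difference was -0.63 ± 0.09 (SE), and it passed (edgeR adjusted p = 0.00303), where 1.65% of tested genes were called lower. The call depended on single libraries. ID1 passed without TGF-β1 replicate 1 (edgeR adjusted p = 0.00704) or TGF-β1 replicate 3 (0.00952), and missed without TGF-β1 replicate 2 (0.314) or control replicates 1, 2 or 3 (0.293, 0.133 and 0.158). Even so, the log2 difference without a single library stayed between -0.80 and -0.65.

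**Figure D2:**
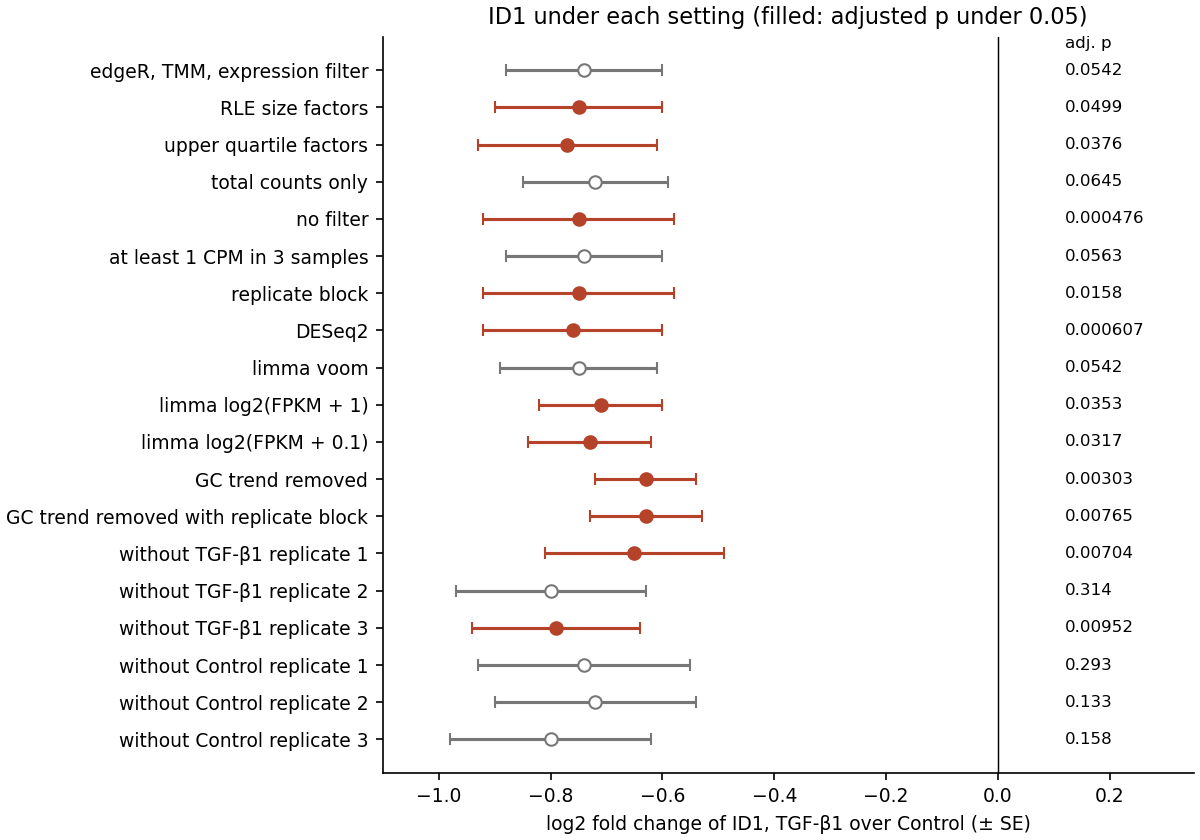
Log2 fold change of ID1, TGF-β1 over control, with its standard error under each setting, and the adjusted p at the right. Filled points passed at an adjusted p under 0.05. The estimates lie between -0.80 and -0.63 while the adjusted p runs from 4.76e-04 to 0.314.

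ID3, which encodes a second ID protein that is often regulated together with ID1, differed by less. It had 21.1, 31.8 and 28.7 CPM in TGF-β1 replicates 1 to 3, against 36.1, 37.9 and 32.4 CPM in control replicates 1 to 3. The groups did not overlap, but TGF-β1 replicate 2 came within 1 CPM of control replicate 3. Separated groups with lower values after TGF-β1 were seen in 3 of the 7 genes (ID1, ID3 and NOG) and in 9.12% of all tested genes. Separation the other way was seen in 0 of the 7 and in 7.93% of all tested genes. The means were 27.2 ± 5.48 CPM with TGF-β1 and 35.5 ± 2.81 CPM in controls (SD, n = 3 each). ID3 did not pass, with a log2 difference of -0.38 ± 0.18 (SE) and a 95% interval from -0.77 to 0.00 (edgeR unadjusted p = 0.0524, adjusted p = 0.324). Scaled by total counts alone, or as FPKM, the groups of ID3 overlapped. With the GC trend removed they overlapped as well, at 23.7, 33.5 and 27.2 CPM with TGF-β1 against 35.7, 33.6 and 33.0 CPM in controls, and the log2 difference was -0.27 (edgeR adjusted p = 0.241).

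ID2, the third ID gene, was low in these cells. It had 80, 98 and 64 counts with TGF-β1, against 93, 69 and 115 counts in controls, or 5.13 ± 0.598 CPM with TGF-β1 and 5.87 ± 1.61 CPM in controls (SD, n = 3 each). The groups overlapped, with the lowest value in control replicate 2. Its log2 difference was -0.19 with a 95% interval from -0.72 to 0.34 (edgeR adjusted p = 0.743). It was -0.11 with the GC trend removed (edgeR adjusted p = 0.835). The interval as measured includes the estimates of ID3 and of no change. Of its exon bases 1.7% overlap the antisense gene ID2-AS1, and the library kit does not mark strand.

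Per gene length, the 3 ID genes together had 46.2, 62.1 and 56.1 FPKM in TGF-β1 replicates 1 to 3, against 84.3, 84.8 and 78.6 FPKM in control replicates 1 to 3. ID1 made up 64.3%, 60.6% and 62.8% of this sum with TGF-β1 and 67.8%, 68.9% and 68.3% in controls. ID3 made up 30.9%, 35.1% and 33.5% with TGF-β1 and 28.7%, 29.0% and 27.7% in controls. The summed level and the share of ID1 were thus lower, and the share of ID3 higher, in every TGF-β1 library than in every control library. The ratio of ID1 to ID3 in FPKM was 1.89 ± 0.175 with TGF-β1 and 2.40 ± 0.0558 in controls (SD, n = 3 each), and this difference was not tested. ID2 contributed 3.72% to 4.81% with TGF-β1 and 2.08% to 4.05% in controls.

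The genes whose log2 CPM profile over the 6 samples lay nearest to that of ID1 were DUSP1, TRNP1 and FHL2, with root mean square differences of 0.0593, 0.0698 and 0.0794 among 7562 genes of at least 20 CPM. DUSP1, a MAP kinase phosphatase, had 102, 115 and 124 CPM with TGF-β1, against 186, 191 and 184 CPM in controls. ID3 itself lay at 0.190 from ID1. The nearest profiles to ID3 were PRR7 (0.0655), PPCDC (0.0743) and the ribosomal protein gene RPS21 (0.0745). RPS21 had 283, 370 and 340 CPM with TGF-β1, against 437, 457 and 365 CPM in controls, with its lowest value in TGF-β1 replicate 1 as for ID3. The 3 genes nearest to ID1 were called lower (edgeR adjusted p = 0.0350, 0.0350 and 0.0261) and the 3 nearest to ID3 were not. Likeness was taken over the same samples as the tests, so it adds no separate support to them.

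GREM1 was by far the most abundant of the genes described. It spans bases 32717974 to 32745107 of chromosome 15 on the plus strand, and 1.3% of its exon bases overlap AC090877.2 on the opposite strand. It had 46506, 37872 and 24684 counts with TGF-β1, against 30677, 30759 and 35530 counts in controls. In CPM these were 2824, 2246 and 1816 with TGF-β1, against 2169, 1793 and 2166 in controls. The groups overlapped: TGF-β1 replicate 1 was the highest library, and TGF-β1 replicate 3 was below 2 controls. The means were 2295 ± 506 CPM with TGF-β1 and 2042 ± 216 CPM in controls (SD, n = 3 each), a log2 difference of 0.17 with a 95% interval from -0.18 to 0.52 (edgeR adjusted p = 0.649).

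The direction of GREM1 turned when the GC trend was removed. Its transcript has a GC content of 39.8%, the lowest of the genes described, against 52.1% to 59.5% in the others. With the trend removed GREM1 had 1961, 2011 and 2050 CPM with TGF-β1, against 2291, 2346 and 2232 CPM in controls, and the groups no longer overlapped, as was the case toward lower values in 12.9% of all tested genes. The SD was then 44.5 CPM with TGF-β1 and 57.0 CPM in controls. GREM1 did not pass in that fit either, at a log2 difference of -0.19 ± 0.08 (SE) with a 95% interval from -0.37 to -0.01 (edgeR adjusted p = 0.213). Without TGF-β1 replicate 1 it was -0.01 (edgeR adjusted p = 0.993). GREM1 thus had no call and no fixed direction across these settings.

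**Figure D3:**
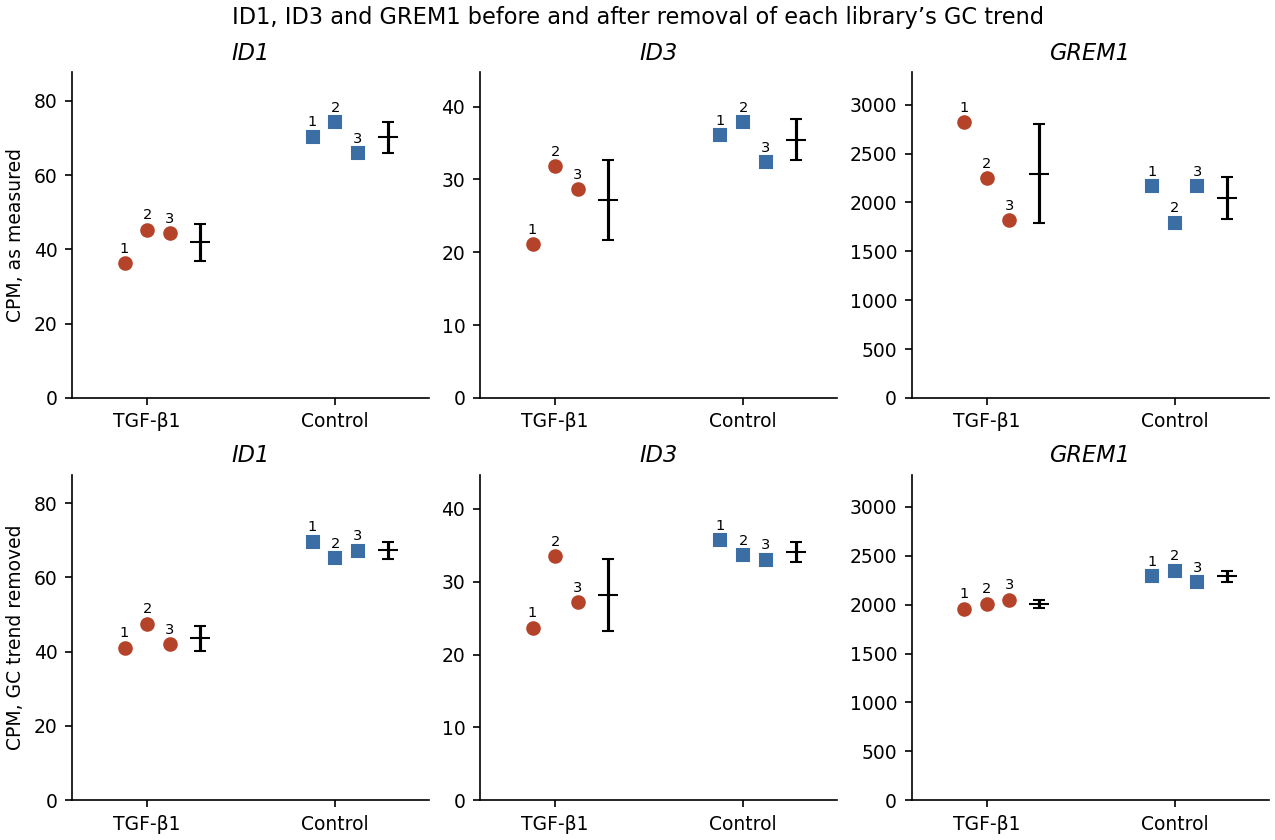
CPM of ID1, ID3 and GREM1 as measured (top) and with each library's trend on GC content removed (bottom), circles for TGF-β1 and squares for control libraries, numbered by replicate, with mean ± SD of 3. ID1 keeps its separation, ID3 overlaps after removal, and the TGF-β1 libraries of GREM1 span 1816 to 2824 CPM as measured and 1961 to 2050 CPM after removal.

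NOG was expressed at a low level. It had 35, 41 and 34 counts in TGF-β1 replicates 1 to 3, against 38, 50 and 72 counts in control replicates 1 to 3. In CPM these were 2.13, 2.43 and 2.50 with TGF-β1, against 2.69, 2.91 and 4.39 in controls. The groups did not overlap, with a narrow gap and a single high control, replicate 3. The log2 difference was -0.51 with a 95% interval from -1.09 to 0.08 (edgeR adjusted p = 0.384), and with the GC trend removed it was -0.39 (0.427), with TGF-β1 replicate 2 and control replicate 2 level at 2.54 CPM. As measured it ran from -0.63 to -0.26 without a single library.

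Of the ligands, BMP4 was the most abundant. It had 6.38, 8.12 and 7.65 CPM in TGF-β1 replicates 1 to 3, against 7.49, 8.45 and 7.01 CPM in control replicates 1 to 3. The groups lay over each other, and the log2 difference was -0.05 with a 95% interval from -0.47 to 0.37 (edgeR adjusted p = 0.919). With the GC trend removed it was 0.03 (edgeR adjusted p = 0.923). BMP6, known in the liver as the endothelial signal that drives hepcidin, had 2.55, 2.25 and 1.69 CPM with TGF-β1, against 2.97, 3.03 and 2.50 CPM in controls. Its groups overlapped at a single pair of libraries, TGF-β1 replicate 1 and control replicate 3. The log2 difference of BMP6 was -0.38 with a 95% interval from -0.94 to 0.19 (edgeR adjusted p = 0.515), and -0.27 with the GC trend removed (0.592). BMP2 had 5, 4 and 3 counts with TGF-β1, against 5, 5 and 3 counts in controls. That is at or just above the detection floor in every library, so no fold is given.

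**Figure D4:**
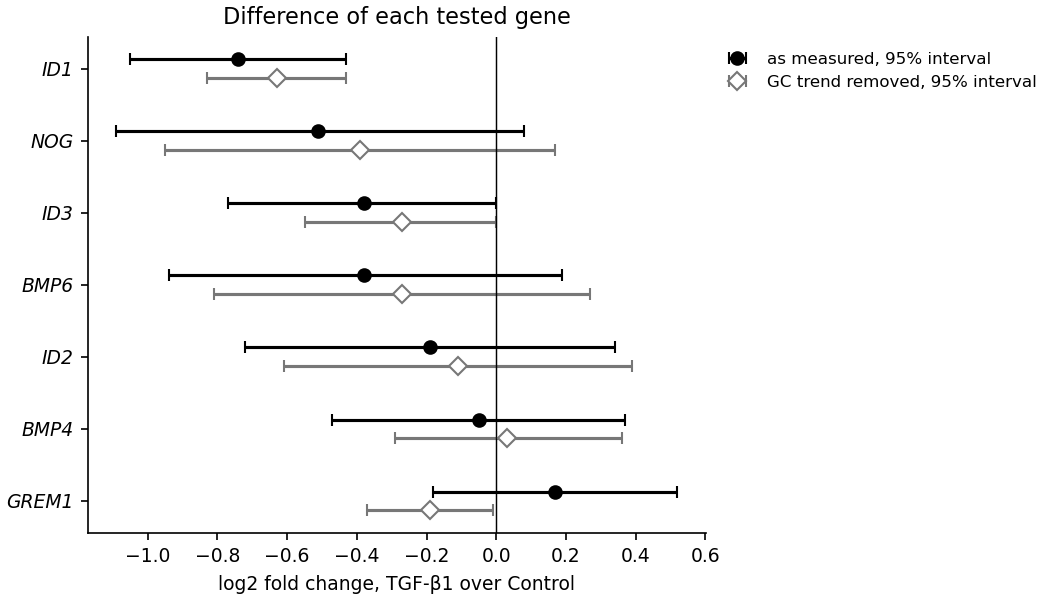
Log2 fold change, TGF-β1 over control, of the 7 tested genes with 95% intervals, as measured (filled) and with the GC trend removed (open). The interval of ID1 lies below 0 both ways, from -1.05 to -0.43 as measured, and GREM1 moves from 0.17 to -0.19.

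Per gene length the antagonist GREM1 stood far above the ligands. In FPKM the order in controls was GREM1 (137 ± 17.0), ID1 (56.4 ± 2.47), ID3 (23.5 ± 1.53), ID2 (2.64 ± 0.767), BMP4 (2.45 ± 0.188), NOG (1.73 ± 0.499), BMP6 (0.742 ± 0.0684) and BMP2 (0.0771 ± 0.0242), each as SD with n = 3. Among neighbours in this order, ID2 and BMP4 lay within each other's spread in controls. The means of NOG and BMP4 differed by slightly more than their SDs together. In control replicate 3 the order of these genes was reversed, with NOG at 2.30 and BMP4 at 2.27 FPKM. With TGF-β1 the means were 156 ± 36.4 for GREM1, 34.2 ± 4.08 for ID1, 18.3 ± 3.77 for ID3, 2.33 ± 0.318 for ID2, 2.40 ± 0.304 for BMP4, 1.24 ± 0.0978 for NOG, 0.577 ± 0.125 for BMP6 and 0.0721 ± 0.0132 for BMP2. ID2 and BMP4 again lay within each other's spread. Over all samples 213 genes of the table had a higher mean FPKM than GREM1, against 975 for ID1 and 2363 for ID3. GREM1 exceeded BMP4 by a factor of 92.8, 57.9 and 49.7 in the TGF-β1 libraries, against 60.6, 44.4 and 64.7 in the control libraries, and these ranges overlapped. The authors' FPKM of GREM1 rest on a length of 14784 bases, so its level per length, unlike its difference between groups, depends on that length.

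Other genes of the BMP pathway were read from the same fit. Of 74 listed, 66 had a row and 51 were tested. None was called by edgeR, against 0.187% of all tested genes called higher and 0.180% called lower. At an unadjusted p under 0.05, 11 were higher and 5 lower, against 11.1% and 4.49% of all tested genes. DESeq2 called 7 higher and 1 lower, against 3.45% and 1% of the genes to which it gave an adjusted p. Limma voom called 0, and limma on log2(FPKM + 1) also called 0, where it called 0.166% of all tested genes higher and 0.201% lower. With the GC trend removed 5 were higher (RGMB, SMAD1, SMURF2, FSTL1 and FSTL3) and 3 lower (CHRDL1, FST and ATOH8). In that fit 1.71% of all tested genes were called higher and 1.65% lower. The median log2 difference of the 51 genes was 0.09, against 0.01 for all tested genes and -0.38 for the 7 genes above. SMAD1, CHRDL1, FST, ATOH8, SMAD6, SMAD7, SKIL, BAMBI, TCF4 and TCF12 are named below after their values were seen.

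Of 11 other ligand genes only BMP8A and BMP8B passed the filter on low counts, with 0 calls. BMP8B had 4.19, 3.91 and 5.08 CPM with TGF-β1, against 6.08, 6.94 and 6.77 CPM in controls (log2 difference -0.59, edgeR adjusted p = 0.204, and -0.49 with the GC trend removed, 0.116). Among 9 tested receptors and co-receptors 0 were called. Higher levels at an edgeR unadjusted p under 0.05 were seen for 2 (BMPR2 and RGMB), against 11.1% of all tested genes. By DESeq2 1 was called (BMPR2, higher), where 3.45% of the genes with an adjusted p were called higher. BMPR2, the type II BMP receptor, had 128, 93.7 and 75.0 CPM with TGF-β1, against 54.6, 55.8 and 62.0 CPM in controls (log2 difference 0.79, edgeR adjusted p = 0.105). Every TGF-β1 library of BMPR2 lay above every control, though with the GC trend removed the log2 difference was 0.32 (edgeR adjusted p = 0.0883). BMPR2 passed in 5 of the 18 alternative settings, among them DESeq2 (DESeq2 adjusted p = 0.00463). The BMP co-receptor RGMB had 161, 151 and 151 CPM with TGF-β1, against 117, 103 and 138 CPM in controls (log2 difference 0.37, edgeR adjusted p = 0.224). RGMB passed in 1 of the 18 alternative settings, with the GC trend removed, also at 0.37 (edgeR adjusted p = 0.0449). ENG (endoglin, log2 difference -0.07) and NEO1 (neogenin, -0.25) were not called (edgeR adjusted p = 0.815 and 0.428), and ENG was at 0.04 with the trend removed.

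Among 11 tested SMADs and SMAD inhibitors 0 were called. Of these, 5 had an edgeR unadjusted p under 0.05 with a higher level, against 11.1% of all tested genes. DESeq2 called 3, all higher, where it called 3.45% of the genes with an adjusted p higher. SMAD1, a transducer of BMP receptors, had 13.7, 11.4 and 8.68 CPM with TGF-β1, against 6.01, 4.20 and 5.67 CPM in controls (log2 difference 1.09 ± 0.23 SE, edgeR adjusted p = 0.0752). The groups of SMAD1 did not overlap, and it passed with the GC trend removed at a log2 difference of 0.71 (edgeR adjusted p = 0.0208). SMURF2, a ubiquitin ligase that acts on SMADs and receptors, had a log2 difference of 0.77 (edgeR adjusted p = 0.146) and passed with the trend removed at 0.39 (0.0363). SMAD5 had a log2 difference of 0.63 as measured (edgeR adjusted p = 0.249) and 0.14 with the GC trend removed (0.488). The inhibitors that BMP itself is known to induce were not called: SMAD6 had a log2 difference of 0.19 (edgeR adjusted p = 0.738), SMAD7 0.42 (0.268) and the pseudoreceptor BAMBI -0.25 (0.613). With the GC trend removed these were 0.31 (0.375), 0.55 (0.0584) and -0.19 (0.619). SKIL, a SMAD corepressor that TGF-β is known to induce, had 29.0, 19.7 and 10.3 CPM with TGF-β1, against 8.41, 8.22 and 10.4 CPM in controls. TGF-β1 replicate 3 of SKIL lay within the range of the controls. Its log2 difference of 1.13 ± 0.31 (SE) was the highest of the 51 genes, and it was not called either as measured (edgeR adjusted p = 0.146) or with the GC trend removed, at 0.54 (0.0947). The related corepressor SKI (log2 difference -0.20) and the ubiquitin ligase SMURF1 (0.04) were not called (edgeR adjusted p = 0.491 and 0.889).

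Other secreted antagonists and modulators had 12 tested genes and 0 calls. At an edgeR unadjusted p under 0.05, 2 were higher and 2 lower, against 11.1% and 4.49% of all tested genes. By DESeq2 1 was called (FSTL1, higher), where 3.45% of the genes with an adjusted p were called higher. FSTL1, a secreted glycoprotein that can bind BMP4, had 575, 510 and 420 CPM with TGF-β1, against 319, 269 and 362 CPM in controls (log2 difference 0.66, edgeR adjusted p = 0.0995, and 0.53 with the GC trend removed, 0.00471). FSTL3, an activin-binding relative of follistatin, had a log2 difference of 0.49 (edgeR adjusted p = 0.201, and 0.60 with the trend removed, 0.0148). FST, follistatin, had 8.14, 6.17 and 5.81 CPM with TGF-β1, against 10.3, 9.79 and 11.8 CPM in controls (log2 difference -0.66, edgeR adjusted p = 0.166, and -0.75 with the trend removed, 0.0142). CHRDL1, a chordin-like BMP antagonist, had a log2 difference of -0.43 (edgeR adjusted p = 0.285, and -0.59 with the trend removed, 0.0232). CRIM1 (log2 difference 0.09) and TWSG1 (0.38) were not called (edgeR adjusted p = 0.823 and 0.449), and TWSG1 was at -0.14 with the trend removed.

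**Figure D5:**
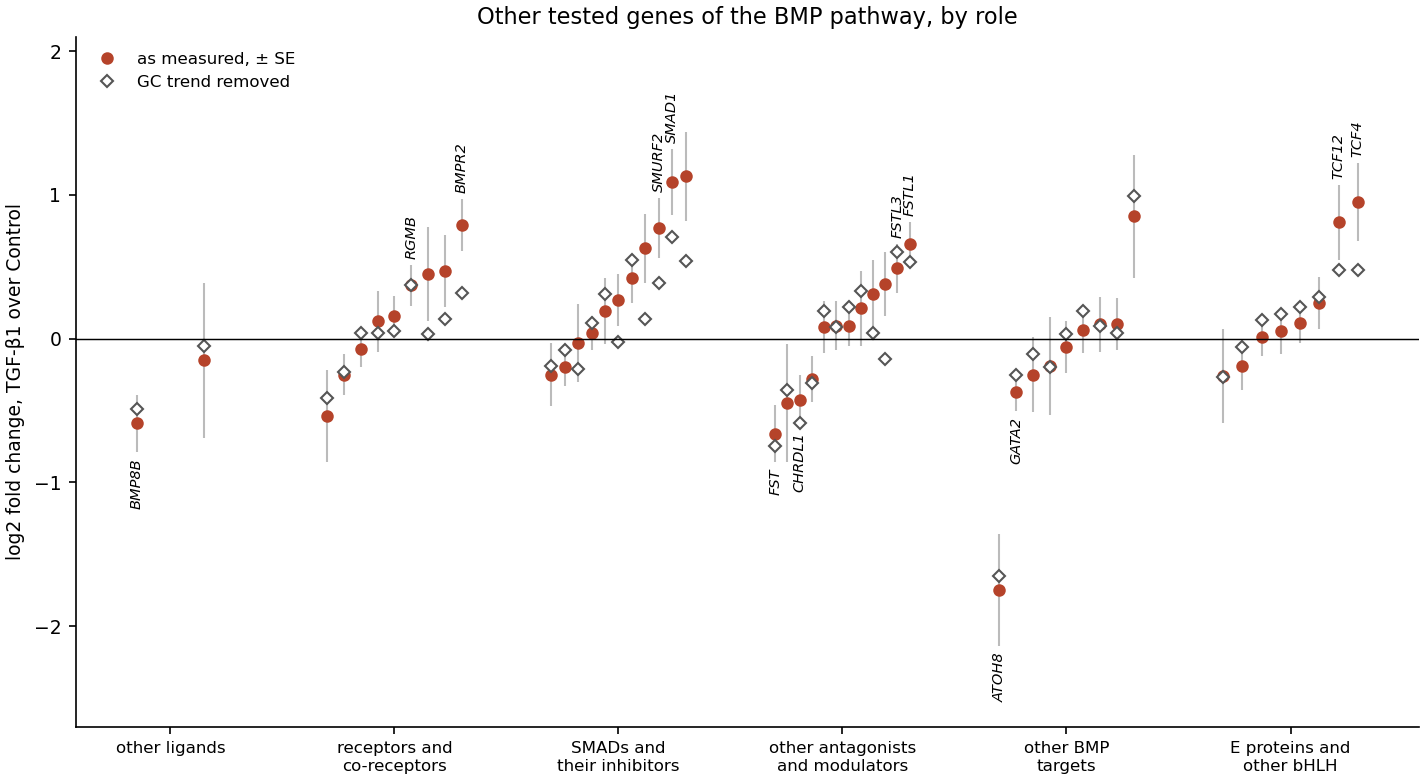
Log2 fold change, TGF-β1 over control, of the 51 other tested genes of the BMP pathway by role, as measured with SE (filled) and with the GC trend removed (open). ATOH8 lies lowest at -1.75 and SKIL highest at 1.13, and SMAD1 at 1.09 and BMPR2 at 0.79 move toward 0 with the trend removed.

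Of 9 other tested BMP targets 0 were called. At an edgeR unadjusted p under 0.05, 2 (ATOH8 and GATA2) were lower, against 4.49% of all tested genes. By DESeq2 1 was called (ATOH8, lower), where 1% of the genes with an adjusted p were called lower. ATOH8, a helix-loop-helix transcription factor, had 9, 5 and 10 counts with TGF-β1, against 30, 30 and 23 counts in controls. That is a log2 difference of -1.75 ± 0.39 (SE) from low counts (edgeR adjusted p = 0.0933), and it passed with the GC trend removed at -1.65 (0.0347). GATA2 had 44.4, 47.3 and 45.1 CPM with TGF-β1, against 54.9, 63.0 and 59.1 CPM in controls (edgeR adjusted p = 0.214). The homeobox genes MSX1 and MSX2, which BMPs induce in many tissues, had log2 differences of 0.06 and 0.10 (edgeR adjusted p = 0.880 and 0.830), and GATA3 had -0.06 (0.894), or 0.03 with the GC trend removed.

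The E proteins and other helix-loop-helix factors gave 0 calls among 8 tested genes. At an edgeR unadjusted p under 0.05, 2 were higher, against 11.1% of all tested genes. DESeq2 called 2 higher (TCF4 and TCF12), where it called 3.45% of the genes with an adjusted p higher. TCF3, the most abundant E protein gene here per length, had 141, 160 and 173 CPM with TGF-β1, against 144, 170 and 156 CPM in controls (edgeR adjusted p = 0.976). TCF4 had 42.4, 27.6 and 18.2 CPM with TGF-β1, against 14.6, 12.8 and 18.3 CPM in controls (log2 difference 0.95, edgeR adjusted p = 0.154, and 0.48 with the GC trend removed, 0.0710). TCF12 had 63.8, 41.3 and 30.6 CPM with TGF-β1, against 25.0, 20.5 and 32.2 CPM in controls (log2 difference 0.81, edgeR adjusted p = 0.184, and 0.48 with the trend removed, 0.0677). For both genes TGF-β1 replicate 3 lay within the range of the controls. TWIST1, TWIST2 and HES1 had log2 differences of 0.05, 0.11 and 0.25 (edgeR adjusted p = 0.907, 0.733 and 0.534).

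Markers of other liver cells were set beside these results. Of 9 hepatocyte markers 5 had a row, with a summed level of 57.3 to 72.5 CPM with TGF-β1 and 50.3 to 54.1 CPM in controls, and APOA1, APOB and CYP3A4 had 0 or 1 count per library, while SERPINA1 had 371 to 540 counts and CPS1 had 339 to 735. Of 9 endothelial markers 8 had a row, at 435 to 453 CPM with TGF-β1 and 443 to 454 CPM in controls, and CDH5 and STAB2 had 0 to 4 counts per library, while TIE1 had 4307 to 6235 counts and FLT1 had 1658 to 2893. Of 9 leukocyte markers 7 had a row, at 26.6 to 29.4 CPM with TGF-β1 and 29.0 to 36.8 CPM in controls, with LYZ and CD163 at 0 to 5 counts. The leukocyte sum came mainly from CD14, ITGAX and CSF1R, which are described after their values were seen. CD14 had 9.66, 9.96 and 11.0 CPM with TGF-β1, against 17.0, 17.5 and 12.7 CPM in controls (log2 difference -0.63, edgeR adjusted p = 0.161). ITGAX had 9.05, 9.01 and 10.9 CPM with TGF-β1, against 13.9, 13.5 and 11.7 CPM in controls (log2 difference -0.43, edgeR adjusted p = 0.273). The groups of both genes did not overlap, with lower values after TGF-β1 as for ID1 and for 9.12% of all tested genes. CSF1R went the other way, with means of 6.44 CPM with TGF-β1 and 4.77 CPM in controls. Its log2 difference was 0.43 (edgeR adjusted p = 0.362), and its groups overlapped. Of 7 epithelial markers 6 had a row, at 498 to 672 CPM with TGF-β1 and 630 to 737 CPM in controls, with EPCAM and KRT19 at 0 to 2 counts, while KRT8 had 4375 to 7500 counts, KRT18 had 2464 to 4219 and SOX9 had 1022 to 1402. No marker of these lists was called by edgeR. The part of these markers in the levels of the ID genes was not tested.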

How the data were processed

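RNA sequencing values of 6 LX-2 samples were used. HISAT2, HTSeq (0.13.5) and the build GRCh38 are listed in the submitters' processing notes without their roles. Which annotation release the authors used is not known here. The authors deposited whole-number read counts per gene without normalization, per the file headers, and FPKM values per gene. The deposited FPKM follow from the counts with a single length per gene (within 0.01 bases) and the table total. Per the labels' protocols the library kit was NEBNext Ultra RNA. Coordinates, overlaps and GC content come from GENCODE release 29 on GRCh38, and 862 of 27830 genes had no GC value.

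The count test was that of edgeR 4.0.16 under R 4.3.3 (robust quasi-likelihood F test, two-sided, TMM, filterByExpr, which kept 14463 genes), with Benjamini-Hochberg adjustment over these genes and calls under 0.05. Alternatives were other scaling (RLE, upper quartile, total counts), no filter or 1 CPM in 3 samples, a replicate block, omission of each sample, DESeq2 1.42.0, limma 3.58.1 (voom, log2(FPKM + 1), log2(FPKM + 0.1)) and removal of each library's trend on GC content (loess, span 0.5). The genes and lists, and the GC removal, were chosen with earlier results of these data known. Named pathway genes were, per role, called genes and up to 4 with the highest FPKM, with later additions stated. The test was tried on simulated data before use. There it recovered 22.4% of 1.5-fold, 67.2% of 2-fold and 93.9% of 4-fold changes, and 7.58% of its calls were false. The floor of 3 counts covers counting error only. No pair of libraries within a group was a duplicate (chi-square 4.86 to 41.1 per degree of freedom), and pairs across the groups were not checked.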

Additional observations from a re-analysis of the deposited data

How the results depend on the processing

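The 7 tested genes gave 0 calls higher under every alternative run, and ID1 was the only call lower. The count of genes called lower among the 7 was 1 with RLE factors, upper quartile factors, no filter, the replicate block, DESeq2, log2(FPKM + 1), log2(FPKM + 0.1), the GC trend removed and GC removal with the block, and 0 to 1 with a sample left out. The direction of ID1, ID2, ID3, BMP6 and NOG held in all 18 alternatives. Other pathway genes called higher numbered 1 with upper quartile factors, 9 with no filter, 6 with the block, 7 with DESeq2, 5 with the GC trend removed, 3 with GC removal and the block, and 0 to 10 with a sample left out. Those called lower numbered 1 with no filter, the block or DESeq2, 3 with the GC trend removed with or without the block, and 0 to 2 with a sample left out.

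Over all tested genes 53 were called (27 higher, 26 lower), against 111 (57, 54) with upper quartile factors, 1240 (1071, 169) with no filter, 590 (457, 133) with DESeq2, 486 (248, 238) with the GC trend removed and 411 (206, 205) with GC removal and the block. A left-out sample gave 4 to 1671 calls, 4 to 1374 higher and 0 to 297 lower. The lowest counts came without TGF-β1 replicate 2 (4), control replicate 1 (13) and control replicate 3 (15), and the highest without TGF-β1 replicates 3 (1671) and 1 (324). With the replicate block 527 genes were called (429, 98), and ID1 passed (edgeR adjusted p = 0.0158). Samples that share a number had deviations from their group means correlated at 0.225, 0.132 and -0.423. With 3 libraries per group and the GC trend left in, these values cannot decide whether the numbers pair the samples.

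Log2 differences that changed sign, none of them called as measured or where the sign changed, were as follows. With the GC trend removed they were BMP4 0.03, GREM1 -0.19, ENG 0.04, TWSG1 -0.14 and GATA3 0.03, and with the block as well BMP4 0.03, GREM1 -0.19, ENG 0.04, TWSG1 -0.14 and GATA3 0.02. TWSG1 passed as higher without TGF-β1 replicate 3, at 0.59 (edgeR adjusted p = 0.0475). TCF3 was at -0.02 with upper quartile factors and -0.0023 with DESeq2. With a sample left out the ranges were -0.13 to 0.04 for BMP4, -0.01 to 0.31 for GREM1, -0.08 to 0.20 for CRIM1, -0.73 to 0.23 for BMP8A, -0.17 to 0.03 for GATA3, -0.06 to 0.08 for TCF3, -0.02 to 0.17 for MSX1 and -0.02 to 0.10 for SMURF1. The causes were not tested. BMP2 stood at the detection floor at this depth, and NOG, BMP6 and ATOH8 rest on 5 to 72 counts per library.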
